A study of Mus musculus with 80 samples.

Results

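The transcriptome of muscle from UCP1/FGF21 double knockout (dKO) mice was compared with that of wildtype (WT) mice, using the 5 muscle libraries of each genotype, which make up 10 of the 80 RNA-seq libraries of the series. The members were chosen by tissue and genotype label alone. The labels, and a sentence of the study's methods, write the second deleted gene as FGF12. The breeding scheme in those methods and the rest of the study name it FGF21. The deletions of Ucp1 and Fgf21 in the dKO mice were constitutive and not limited to a tissue. The lines began with a cross between mice homozygous for either deletion, whose heterozygous offspring were mated to give homozygous mice of each genotype on a C57BL/6J background. All mice were male. Breeding, birth and weaning took place at 30 °C, and the mice were moved to room temperature and a high-fat diet at an age of 10 to 12 weeks. Muscle was taken after 3 weeks of that diet, following food withdrawal for 2 to 3 h. The labels do not name the muscle. Muscle libraries of the single knockouts, 5 of UCP1 KO and 5 of FGF21 KO, shared the model fit and are used for comparison, as are the dKO and WT libraries of liver, inguinal white fat (iWAT) and brown fat (BAT).

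UCP1 is the proton carrier of brown and beige fat mitochondria that turns fuel oxidation into heat. FGF21 is a hormone secreted mainly by liver, and by other organs under metabolic or mitochondrial stress, that signals through FGF receptors and the co-receptor beta-Klotho (Klb). Skeletal muscle contains little beta-Klotho, makes heat by shivering and by calcium pumping at the sarcoplasmic reticulum, and can release FGF21 itself when its mitochondria are impaired. The comparison asks what muscle, the largest heat-producing organ without UCP1, expressed when both genes were missing and the mice lived below thermoneutrality.

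Each muscle library held between 35078371 and 50380696 counts on genes, with 37058617 to 42107010 in dKO and 37299328 to 43593343 in WT, and 15114 genes passed the filter on low counts. No 2 of the 20 libraries were identical. The skeletal muscle label was borne out by the markers, since 10 fibre genes such as Acta1, Ckm and Myh4 summed to between 125177 and 158492 CPM (counts per 1000000 counts of the library, after scaling for library composition) in dKO and between 128396 and 160821 in WT. Fgf21 had 0 counts in each of the 5 dKO libraries and in each FGF21 KO library. In WT it had 1, 3, 0, 2 and 2 counts, at or under the floor of 3 counts, so no fold change is given. Ucp1 had 36, 31, 78, 1176 and 51 counts in WT and 70, 126, 389, 45 and 29 in dKO. The groups overlapped, and the log2 fold change of -1.03 (SE 1.16) did not pass the test (edgeR adjusted p = 0.775) and turned to 1.42 without WT library 4, so Ucp1 did not separate the labels in muscle. In BAT, where Ucp1 is most abundant, its reads did not vanish in dKO but were lower, at 1046 to 1883 CPM against 3205 to 7555 in WT, a difference of -1.98 on the log2 scale (SE 0.25, edgeR adjusted p = 1.45e-05). Whether those reads lie inside the deleted part of the gene cannot be told apart from gene counts. Summed adipocyte markers, which include Ucp1, ran from 87.1 to 352 CPM in WT and from 62.6 to 227 in dKO, with the highest WT value in library 4, where Ucp1 was highest too. Their part in the Ucp1 counts was not tested.

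Few genes passed the test between dKO and WT muscle. Of 15114 genes tested, 8 were called (edgeR quasi-likelihood test, adjusted p under 0.01; 0.0529% of genes), 3 higher (0.0198%) and 5 lower (0.0331%) in dKO. The higher genes were Gm38426, a long noncoding RNA, 4930432K21Rik, an uncharacterised protein-coding gene, and Ccdc130, which encodes a coiled-coil protein related to splicing factors. The lower genes were Wdr83os, which encodes a small endoplasmic reticulum protein that helps membrane proteins fold, Wdr83, a WD-repeat scaffold of the MAP kinase pathway, Gadd45gip1, a subunit of the mitochondrial ribosome also known as CRIF1, BC049805, and 4930578C19Rik. At an adjusted p under 0.05 the count was 40 (0.265%), with 22 higher (0.146%) and 18 lower (0.119%). An unadjusted p under 0.05 was found for 1848 genes (12.2%), 6.58% of all genes higher and 5.64% lower. DESeq2, run on the same libraries at an adjusted p under 0.01, called 71 genes (0.47%), 41 higher and 30 lower, and these included all 8. The median log2 fold change over all genes tested was 0.00422. Nothing in the labels says which libraries of different tissues came from 1 mouse, and the p-values measure the spread between these libraries.

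Of the 8 called genes, 6 lie on chromosome 8 less than 2 Mb beyond Ucp1 (RefSeq, GRCm38.p6, chromosome 8, 83290348 to 83298456). In that order, they are 4930432K21Rik (84148008 to 84172597), Ccdc130 (84257767 to 84270458), Gadd45gip1 (84832282 to 84835482), Gm38426 (84913335 to 84922915), Wdr83 (85075035 to 85080746) and Wdr83os (85080963 to 85082339). The gene 4930578C19Rik lies on chromosome X (18414167 to 18461419). No position was matched for BC049805. Wdr83os and Wdr83, which had the smallest p-values of all genes tested, start 217 bases apart and are read in opposite directions, Wdr83os on the plus strand and Wdr83 on the minus strand. The windows from 250 bases before to 50 after each start share 284 bases. The plus-strand window (RefSeq, GRCm38.p6, chr8:85080713-85081012) is printed because both genes that start in it were lower in dKO, with 2 motifs in capitals.
Wdr83os: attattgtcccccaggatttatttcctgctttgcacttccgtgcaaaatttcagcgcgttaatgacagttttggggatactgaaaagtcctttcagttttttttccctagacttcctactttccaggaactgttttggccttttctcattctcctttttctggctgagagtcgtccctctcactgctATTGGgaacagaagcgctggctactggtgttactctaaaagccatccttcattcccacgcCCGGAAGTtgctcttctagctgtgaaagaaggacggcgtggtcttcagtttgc
The capitals mark CCGGAAGT, the core that ETS-family factors bind, and ATTGG, the reverse complement of the CCAAT box. CCGGAAGT or its reverse complement occurs in 3.89% of the 32851 RefSeq promoter windows of the same length. CCAAT or its reverse complement occurs in 37.4% of them. Neither TATAAA (13.6% of windows) nor the palindromic NRF1 motif (0.971%), searched on both strands, is in this window. Promoter windows were found for 6 of the 8 called genes. The NRF1 motif is in that of 4930432K21Rik, and CCAAT is in those of Ccdc130, 4930578C19Rik and this shared window.

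Some of these genes share exonic sequence with a neighbour on the other strand in the GENCODE annotation of the same build. The models of Wdr83os and Wdr83 share 539 exonic bases, and those of Wdr83 and Dhps share 128. The span of Gm38426 falls within the models of Dnase2a, on its own strand, and of Mast1, on the other. Whether strand was used in counting is not given in the sources used here, so reads of the overlapping stretches cannot be told apart. Dhps, which makes hypusine, had a log2 fold change of -0.23 (SE 0.06) and did not pass the test (edgeR adjusted p = 0.120). Dnase2a, which encodes a lysosomal nuclease, had 0.25 (SE 0.11, edgeR adjusted p = 0.375).

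Wdr83os had 26.7, 26.6, 27.2, 26.8 and 27.9 CPM in the WT libraries and 19.8, 19.6, 18.4, 20.5 and 19.3 in the dKO libraries. Every dKO library lay below every WT library, and the spread within each genotype was small. The WT mean was 27.0 ± 0.522 CPM (SD, n = 5) and the dKO mean 19.5 ± 0.756, which is a log2 fold change of -0.47 (SE 0.04, edgeR adjusted p = 1.31e-06). Wdr83 had 18.1, 15.98, 17.1, 14.7 and 15.3 CPM in WT and 11.7, 11.3, 11.3, 11.4 and 11.4 in dKO. Its dKO libraries were nearly level, all below the lowest WT library. It fell by 0.51 on the log2 scale (SE 0.06, edgeR adjusted p = 1.18e-04). Gadd45gip1, which is needed for the synthesis and membrane insertion of proteins encoded by mitochondrial DNA, had 16.2, 14.3, 13.6, 13.1 and 10.97 CPM in WT. Its 5 dKO libraries had 8.52, 7.84, 9.14, 8.95 and 10.1 CPM, so that the highest dKO library lay just below the lowest WT library. It fell by 0.61 on the log2 scale (SE 0.10, edgeR adjusted p = 0.00813).

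BC049805 had 9.79, 8.84, 9.13, 7.83 and 8.37 CPM in WT and 5.33, 5.23, 5.25, 5.87 and 4.71 in dKO, with a log2 fold change of -0.74 (SE 0.08, edgeR adjusted p = 1.20e-04). The highest dKO library lay well below the lowest WT library. The X-linked gene 4930578C19Rik, now named Dipk2b and encoding a secreted kinase-like protein, had 7.25, 8.16, 7.80, 8.05 and 7.07 CPM in WT. In dKO it had 5.19, 4.94, 4.70, 4.82 and 5.65 CPM, all below WT, with a log2 fold change of -0.60 (SE 0.10, edgeR adjusted p = 0.00927).

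Gm38426 had 0.838, 0.881, 0.586, 0.606 and 0.553 CPM in WT and 1.69, 2.18, 2.20, 2.24 and 2.75 in dKO. It rose 3.19-fold, which was the largest fold among the 8 genes, although it rested on 22 to 38 counts per WT library and 61 to 114 per dKO library. The change was 1.67 on the log2 scale (SE 0.21, edgeR adjusted p = 4.10e-04). The gene 4930432K21Rik had 0.393, 0.533, 0.692, 0.291 and 0.505 CPM in WT and 1.30, 1.06, 1.52, 1.53 and 1.57 in dKO. These values rested on 12 to 26 counts per WT library and 44 to 65 per dKO library, and the groups did not overlap. It rose 2.89-fold, with a log2 fold change of 1.53 (SE 0.22, edgeR adjusted p = 0.00251). Ccdc130 had 5.001, 4.82, 4.55, 5.48 and 4.52 CPM in WT and 6.38, 6.39, 6.10, 7.09 and 6.72 in dKO. It rose 1.34-fold, with a log2 fold change of 0.42 (SE 0.07, edgeR adjusted p = 0.00813). In all 8 genes, the dKO and WT libraries did not overlap, as in 406 of all genes tested (2.69%). Each gave an exact two-sided permutation p of 0.00794, the smallest that 5 libraries against 5 allow. Any gene without overlap gives this value, so it adds nothing to the lack of overlap.

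**Figure D1:**
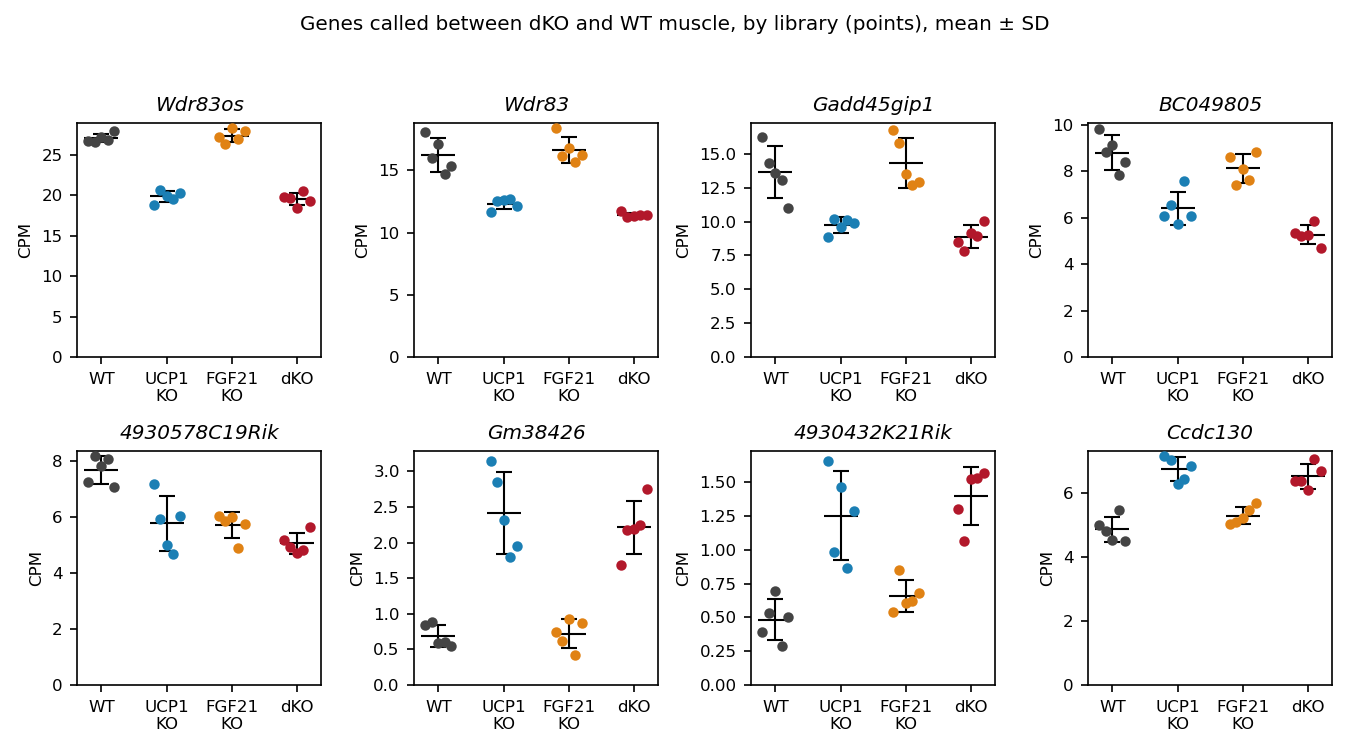
Level of each of the 8 called genes in muscle (vertical axis, CPM, starting at 0) in WT, UCP1 KO, FGF21 KO and dKO, with 1 point per library and the mean ± SD of 5 libraries in black. In Wdr83os the UCP1 KO points lie with the dKO points and the FGF21 KO points with the WT points, at 18.8 to 20.6 CPM in UCP1 KO and 26.3 to 28.4 in FGF21 KO, whereas in 4930432K21Rik both single knockouts reach values between WT and dKO, down to 0.867 CPM in UCP1 KO and up to 0.850 in FGF21 KO.

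Without WT library 5 the count of called genes was 14, of which 7 were among the 8, and without WT library 1 it was 4. Counts of 5 were found without WT library 2, without WT library 3 and without dKO library 2. With WT and dKO libraries alone in the fit, 10 genes were called, of which 5 were among the 8. Wdr83os, Wdr83, BC049805 and Gm38426 passed the test under every alternative tried, including each left-out library. The gene 4930432K21Rik lost the call in 2 alternatives, without WT library 1 and with WT and dKO libraries alone, with adjusted p-values up to 0.0182. Ccdc130 and Gadd45gip1 each lost the call in 8 of the 10 fits that left out a library, with adjusted p-values up to 0.0305, and 4930578C19Rik lost it in 9, with adjusted p-values up to 0.0309. With WT and dKO libraries alone, Ccdc130 and Gadd45gip1 lost it too, and that of Ccdc130 was 0.0557.

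Around Ucp1, many genes besides those called had small p-values. Of 122 genes tested within 10 Mb of Ucp1, 6 were called by edgeR (beside 0.0529% of all genes) and 10 had an adjusted p under 0.05 (beside 0.265%). DESeq2 called 15 of the 122 (beside 0.47% of all genes). An unadjusted p under 0.05 was found for 47 (38.5%), beside 12.2% of all genes. The 47 were split between 24 higher and 23 lower, and the median log2 fold change of the 122 was -0.00167. The share fell with distance, from 28 of 60 genes (46.7%) within 2 Mb to 13 of 31 (41.9%) between 2 and 5 Mb and 6 of 31 (19.4%) between 5 and 10 Mb. Dand5, which encodes a secreted antagonist of BMP and Nodal ligands, Mri1, an enzyme of methionine salvage, Neto2, an accessory subunit of kainate receptors, and Asna1, which inserts tail-anchored proteins into the endoplasmic reticulum, are the 4 genes of this stretch that had an adjusted p between 0.01 and 0.05. Neto2 and Asna1 were named after their values were seen. Neto2 had 3.48, 2.99, 5.94, 5.53 and 11.6 CPM in WT and 15.3, 14.0, 18.2, 25.3 and 16.6 in dKO, giving a log2 fold change of 1.59 (SE 0.33, edgeR adjusted p = 0.0408), beside 1.80 in UCP1 KO and 1.31 in FGF21 KO against the same WT libraries. Asna1 had a log2 fold change of 0.20 (SE 0.04, edgeR adjusted p = 0.0426).

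**Figure D2:**
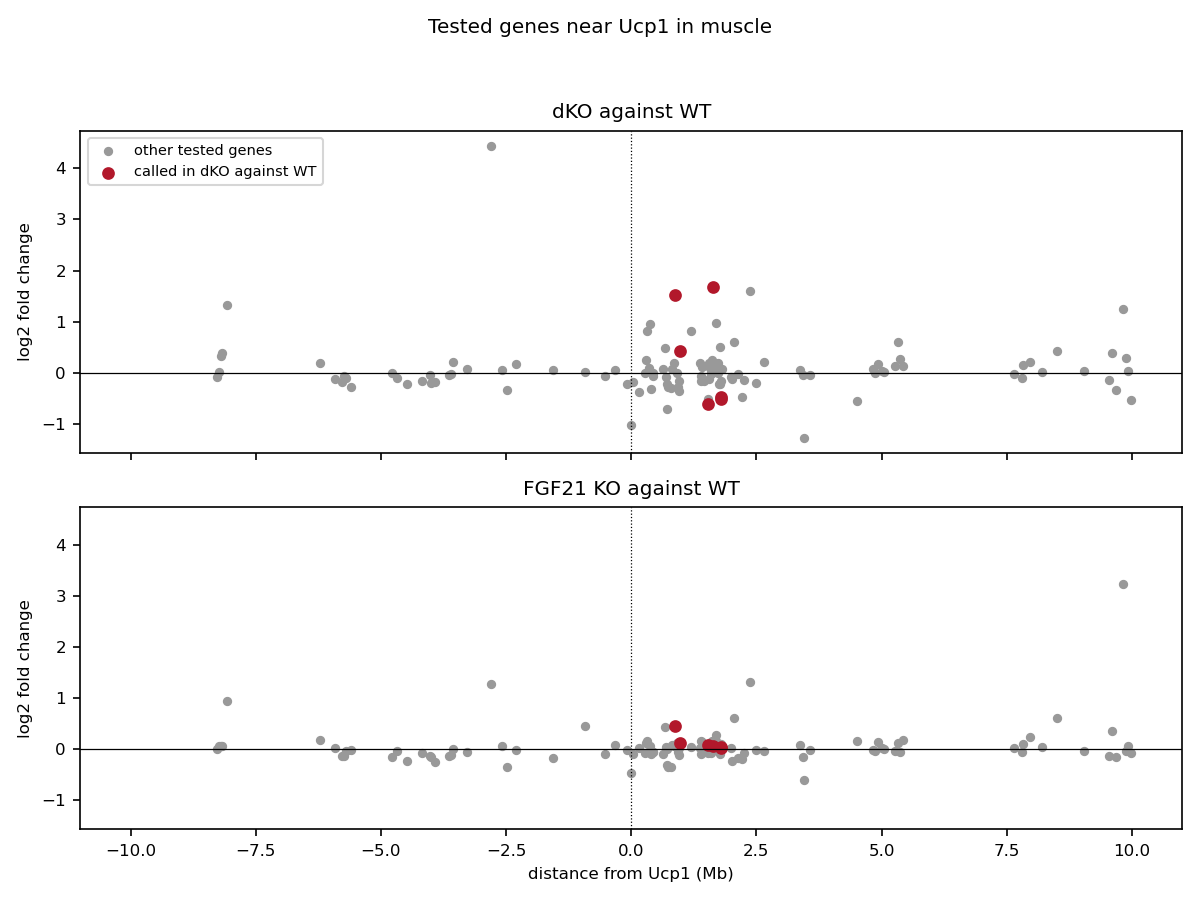
Log2 fold change (vertical axis) against distance from Ucp1 in Mb (horizontal axis, dotted line at Ucp1) for the 122 genes tested within 10 Mb, in dKO against WT (top) and in FGF21 KO against WT (bottom), with the genes called in dKO against WT in red. The 6 red points of the top panel, from -0.61 to 1.67, lie between 0 and 2 Mb beyond Ucp1, and in the bottom panel the same genes lie between 0.02 and 0.45.

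Each genotype comparison was also counted over the 122 genes around Ucp1, and these comparisons share libraries. In UCP1 KO against WT 41 genes (33.6%, beside 9.81% of all genes) had an unadjusted p under 0.05, and in dKO against FGF21 KO 38 did (31.1%, beside 7.96%). In FGF21 KO against WT the count was 19 (15.6%, beside 12.9%), and in dKO against UCP1 KO it was 15 (12.3%, beside 11.7%). By distance, the share in FGF21 KO against WT was 8.33% within 2 Mb, 29% between 2 and 5 Mb and 16.1% between 5 and 10 Mb. The libraries of 21 of the 122 genes (17.2%) did not overlap between dKO and WT, beside 2.69% of all genes.

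Around Fgf21 on chromosome 7 no gene was called by edgeR, while DESeq2 called 2 of the 143 tested (beside 0.47% of all genes). Of 143 genes tested within 10 Mb of it, 15 (10.5%, beside 12.2% of all genes) had an unadjusted p under 0.05, and the libraries of 5 (3.5%) did not overlap, beside 2.69% of all genes. Both genes of this stretch with an adjusted p under 0.05 were lower in dKO. They were Rasip1, which encodes a Ras-interacting protein of endothelial cells and whose start lies beside Fgf21, and Bcat2, the mitochondrial enzyme that begins the breakdown of branched-chain amino acids, named after its values were seen. Rasip1 had 9.58, 9.90, 8.71, 8.68 and 7.24 CPM in WT and 5.88, 4.79, 6.57, 5.80 and 6.50 in dKO, and the groups did not overlap. Its log2 fold change of -0.58 (SE 0.11) had an edgeR adjusted p of 0.0225, beside -0.64 in FGF21 KO and 0.04 in UCP1 KO against the same WT libraries. Bcat2 had 64.1, 64.8, 61.8, 56.8 and 62.1 CPM in WT and 48.3, 39.8, 50.2, 50.3 and 44.2 in dKO, giving a log2 fold change of -0.41 (SE 0.08, edgeR adjusted p = 0.0360), beside -0.18 in FGF21 KO and -0.24 in UCP1 KO.

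UCP1 KO against WT shares the WT libraries with dKO against WT, so the values are set side by side and are not independent. The log2 fold changes in UCP1 KO were -0.45 for Wdr83os, -0.40 for Wdr83, -0.48 for Gadd45gip1, 1.79 for Gm38426, 1.37 for 4930432K21Rik and 0.47 for Ccdc130. In FGF21 KO they were 0.02, 0.04, 0.07, 0.06, 0.45 and 0.12 for the same 6 genes in that order. BC049805 had -0.46 in UCP1 KO and -0.11 in FGF21 KO. In contrast, 4930578C19Rik had -0.41 in UCP1 KO and -0.43 in FGF21 KO (edgeR adjusted p = 0.151 and 0.0352). UCP1 KO and FGF21 KO share no library with each other or with dKO and WT, and the 5 libraries of UCP1 KO and the 5 of FGF21 KO did not overlap for Wdr83os (18.8 to 20.6 CPM against 26.3 to 28.4), Wdr83 (11.7 to 12.7 against 15.6 to 18.4), Gadd45gip1 (8.85 to 10.2 against 12.7 to 16.8), Gm38426 (1.80 to 3.15 against 0.425 to 0.933), 4930432K21Rik (0.867 to 1.66 against 0.538 to 0.850) and Ccdc130 (6.31 to 7.19 against 5.05 to 5.70). The groups overlapped for BC049805 (5.72 to 7.58 against 7.42 to 8.83) and 4930578C19Rik (4.68 to 7.19 against 4.90 to 6.02). Over all genes tested, 509 (3.37%) did not overlap between these groups.

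Compared directly, dKO and UCP1 KO muscle differed in 0 genes by edgeR (0%), where the smallest adjusted p was 0.101 and 1774 genes (11.7%) had an unadjusted p under 0.05, while DESeq2 called 20 (0.132%). Log2 fold changes of dKO against UCP1 KO for the 6 chromosome 8 genes lay between -0.13 and 0.16. Against FGF21 KO, 9 genes were called (0.0595%), 3 higher (0.0198%) and 6 lower (0.0397%) in dKO, and DESeq2 called 17 (0.112%). Wdr83os, Wdr83, BC049805, Gm38426 and Gadd45gip1 were among them, with log2 fold changes of -0.49, -0.55, -0.62, 1.61 and -0.69. Kif2a, which encodes a kinesin that shortens microtubules, was called there as well, at 0.49 on the log2 scale (edgeR adjusted p = 0.00304). The interaction term, which asks whether the double deletion differs from the sum of the single ones, gave 0 genes by edgeR, with a smallest adjusted p of 0.516, 1131 genes (7.48%) at an unadjusted p under 0.05, and 0 genes by DESeq2. UCP1 KO against WT gave 4 called genes (0.0265%), which were Wdr83os, Wdr83, Gm38426 and Ccdc130. FGF21 KO against WT gave 1 (0.00662%), Zfp286, a zinc finger gene that was higher in FGF21 KO (log2 fold change 0.89, edgeR adjusted p = 0.00854). At an adjusted p under 0.05 these counts were 11 (0.0728%) and 177 (1.17%), and DESeq2 gave 26 (0.172%) and 192 (1.27%).

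The called genes were then looked at in libraries of the other tissues, which the muscle comparison did not use. In BAT, where 21.1% of genes were called between dKO and WT, all 8 were tested, 7 had the same direction as in muscle, and 3 were called as well. Wdr83os had a log2 fold change of -0.52 (SE 0.08, edgeR adjusted p = 1.42e-04), Gadd45gip1 of -0.38 (SE 0.09, edgeR adjusted p = 0.00276) and Gm38426 of 2.86 (SE 0.21, edgeR adjusted p = 4.91e-08). In iWAT 6 of 8 had the same direction and 0 were called by edgeR, where 0.0173% of genes were, while 1 had an unadjusted p under 0.05, beside 5.91% of all genes tested in iWAT. This was Wdr83os, whose libraries did not overlap there, with a log2 fold change of -0.41 (SE 0.12, unadjusted p = 0.00352). In liver 6 genes were tested, all 6 had the same direction, and 0 were called by edgeR, where 0.0416% of genes were, while 4 of the 6 had an unadjusted p under 0.05, beside 12.1% of all genes tested in liver. Wdr83, which starts beside Wdr83os, had log2 fold changes of -0.04 in BAT, 0.10 in iWAT and -0.13 in liver, beside -0.51 in muscle. The X-linked gene 4930578C19Rik had 0.25 in BAT and 0.22 in iWAT, opposite in sign to muscle. Whether a gene differed more in one tissue than in another was not tested.

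**Figure D3:**
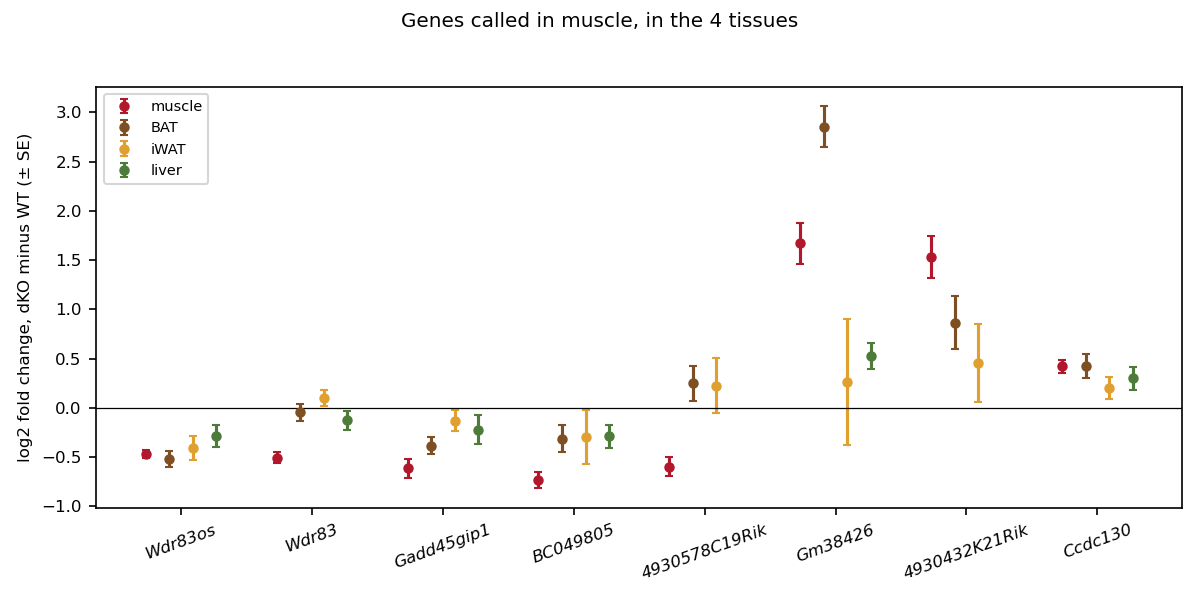
Log2 fold change of dKO against WT (vertical axis, ± SE) for the 8 genes called in muscle, in muscle, BAT, iWAT and liver, each from a fit over the 20 libraries of that tissue. Wdr83os lies between -0.52 and -0.29 in the 4 tissues, Gm38426 between 0.26 and 2.86, and 2 genes have no liver point because they did not pass the filter there.

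Mri1 and Dand5, which lie near Ucp1, were also looked at in the other tissues. In muscle neither was called by edgeR at an adjusted p under 0.01. DESeq2 called Dand5 there, and Mri1 was called under 1 of 16 alternatives. Mri1 had 10.1, 10.2, 10.6, 9.87 and 9.65 CPM in WT muscle and 8.88, 7.98, 7.42, 7.35 and 7.78 in dKO muscle, a log2 fold change of -0.35 (SE 0.07, edgeR adjusted p = 0.0227). In the other tissues its log2 fold changes were -0.83 in BAT (edgeR adjusted p = 1.79e-05), -1.02 in iWAT (edgeR adjusted p = 1.75e-04) and -0.76 in liver (edgeR adjusted p = 0.0757). Dand5 had -0.51 in muscle (SE 0.09, edgeR adjusted p = 0.0125) and -0.78 in BAT (edgeR adjusted p = 0.00111), and it was not called in iWAT, at -0.50, or in liver, at -0.39. Rasip1 and Bcat2, near Fgf21, fell in BAT, with log2 fold changes of -0.65 (edgeR adjusted p = 5.004e-05) and -0.99 (edgeR adjusted p = 7.64e-05). Neither was called in iWAT, at -0.53 and -0.34, or in liver, at -0.35 and -0.02.

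Just outside the threshold lay genes whose dKO and WT libraries did not overlap. The nearest was Kif2a, with 12.5, 12.9, 13.9, 13.1 and 14.1 CPM in WT and 18.6, 18.1, 18.3, 18.2 and 17.0 in dKO, giving a log2 fold change of 0.44 (SE 0.07, edgeR adjusted p = 0.01003). It ran from 15.7 to 16.97 CPM in UCP1 KO and from 9.77 to 13.9 in FGF21 KO. Itpr1, the inositol trisphosphate receptor that releases calcium from the endoplasmic reticulum, had 57.3, 50.8, 56.1, 54.7 and 59.2 CPM in WT and 77.7, 88.0, 70.8, 75.4 and 79.4 in dKO. Its log2 fold change was 0.49 (SE 0.08, edgeR adjusted p = 0.0125), beside 0.43 in FGF21 KO and 0.12 in UCP1 KO against the same WT libraries. Herc2, a large ubiquitin ligase, had narrow groups, at 136, 139, 143, 142 and 140 CPM in WT and 155, 169, 164, 164 and 163 in dKO, and a log2 fold change of 0.22 (SE 0.04, edgeR adjusted p = 0.0135). Napb, a membrane fusion adaptor, had a log2 fold change of 0.40 (SE 0.07, edgeR adjusted p = 0.0157) and Zfp286 of 0.70 (SE 0.12, edgeR adjusted p = 0.0159).

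Among the genes with lower values, Adhfe1, a mitochondrial enzyme that oxidises 4-hydroxybutyrate, had 50.3, 56.5, 56.8, 54.3 and 44.2 CPM in WT and 42.4, 35.6, 39.9, 34.5 and 32.7 in dKO. Its log2 fold change of -0.50 (SE 0.09) had an edgeR adjusted p of 0.0227. In BAT, where it was called, it was -1.36 (edgeR adjusted p = 5.47e-05), beside -0.37 in iWAT and 0.01 in liver, where it was not called. In muscle of the single knockouts Adhfe1 ran from 33.7 to 44.3 CPM in UCP1 KO and from 35.5 to 47.2 in FGF21 KO. Muc4, a membrane mucin, had 1.91, 1.25, 1.76, 1.92 and 2.21 CPM in WT and 1.05, 0.726, 0.675, 0.930 and 0.338 in dKO. The difference was -1.28 on the log2 scale (SE 0.25, edgeR adjusted p = 0.0298), beside -1.18 in UCP1 KO and -1.30 in FGF21 KO. DESeq2 called 63 genes that edgeR did not, and the 5 with the smallest DESeq2 p were Herc2, Kif2a, Itpr1, Dand5 and Napb. Further genes with an adjusted p between 0.01 and 0.05, named after their values were seen, included Cav3, the caveolin of muscle fibres, at -0.30, Myl9, a smooth muscle myosin light chain, at -0.44, and Acy1, an aminoacylase, at -0.45. Gfpt2, an enzyme of hexosamine synthesis, had 0.61, Tmem37 1.06 and Shc2, a signalling adaptor, 1.17, all on the log2 scale.

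No gene of the 27 lists on muscle function, metabolism and signalling was called by edgeR, while DESeq2 called 4 of their members, Itpr1, Dok7, Fosb and Junb. The FGF21 receptor Fgfr1 had a log2 fold change of -0.09 (SE 0.11), which lay between -0.16 without dKO library 1 and -0.0041 without dKO library 3, and Klb, at 0.277 to 2.10 CPM in dKO and 0.293 to 2.26 in WT, one of 0.31 (SE 0.56), which turned to -0.05 without dKO library 3 and was 1.001 without WT library 4. Of 14 receptor and feedback genes tested, 3 had an unadjusted p under 0.05 (21.4%, beside 12.2% of all genes), 1 higher and 2 lower. The higher gene was Fgfr2, an FGF receptor, at 0.94 (SE 0.44), and the lower genes were Etv4 at -0.54 and Dusp6 at -0.30, which are transcriptional targets of FGF receptor signalling through ERK. None of the 3 passed the test (edgeR adjusted p = 0.398, 0.214 and 0.344). The median over the list was -0.0118, with 7 genes positive and 7 negative. Gdf15, a stress hormone, did not pass the filter.

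None of the uncoupling and thermogenic genes was called by edgeR. Of 6 uncoupling and carrier genes, 0 had an unadjusted p under 0.05 or were called by edgeR or DESeq2. Ucp3, the muscle uncoupling protein homologue, had 137, 160, 204, 359 and 387 CPM in WT and 184, 165, 160, 274 and 277 in dKO, giving a log2 fold change of -0.23 (SE 0.30), and Ucp2 one of 0.10 (SE 0.13), which was 0.02 without dKO library 2. Sln, the peptide sarcolipin that uncouples calcium pumping from ATP hydrolysis, had 2.25, 0.742, 0.453, 0.388 and 1.28 CPM in WT and 1.47, 4.28, 1.00, 1.89 and 1.67 in dKO. The groups overlapped, and the log2 fold change of 1.02 (SE 0.53) did not pass the test (edgeR adjusted p = 0.447). The calcium pumps Atp2a1, of fast fibres, and Atp2a2, of slow fibres, had log2 fold changes of 0.0035 (SE 0.0716) and 0.45 (SE 0.34), and the release channel Ryr1 one of 0.03 (SE 0.09). These values moved with single libraries, since Sln had 0.56 without dKO library 2 and 1.52 without WT library 1, Atp2a2 0.32 without dKO library 3 and 0.91 without WT library 1, and Ucp3 -0.39 without WT library 1 and -0.02 without WT library 5. Of 27 calcium cycling genes, 7 had an unadjusted p under 0.05 (25.9%, beside 12.2% of all genes), 2 higher and 5 lower, and Itpr1, the gene of this list called by DESeq2, had the smallest.

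No fibre type gene was called by edgeR or DESeq2. Myh4, the myosin of the fastest fibres, had 40400 to 57900 CPM in WT and 43850 to 59310 in dKO, giving a log2 fold change of 0.01 (SE 0.11). Myh7, the slow myosin, had 217, 8.49, 15.4, 10.2 and 56.2 CPM in WT and 67.2, 128, 121, 77.8 and 27.4 in dKO, so the WT values alone spanned most of the range. Its log2 fold change was 0.46 (SE 0.80), with a range of 0.17 without WT library 2 to 1.89 without WT library 1, and those of Myh1 and Myh2 were 0.05 (SE 0.21) and -0.07 (SE 0.40). Over 15 slow fibre genes the median log2 fold change was 0.405. Of them 0 had an unadjusted p under 0.05 and 0 were called by edgeR or DESeq2. Over 15 fast fibre genes the median was -0.0795, and 3 had an unadjusted p under 0.05 (20%, beside 12.2% of all genes). All 3 were lower in dKO, beside 5.64% of all genes on the lower side. Those were Mylpf, a fast myosin light chain, at -0.24, Pvalb, a calcium buffer, at -0.21 and Casq1, the calcium store protein, at -0.18.

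In the lists of respiratory chain, citric acid cycle, fatty acid oxidation, glycolysis, PPAR and insulin genes, none was called by edgeR or DESeq2. Among 58 respiratory chain genes 1 had an unadjusted p under 0.05 (1.72%, beside 12.2% of all genes), and the median log2 fold change was -0.0498. Of 21 fatty acid oxidation genes 1 had an unadjusted p under 0.05, and of 19 citric acid cycle genes and 17 PPAR and PGC1 regulators 0 did, with none called by edgeR or DESeq2. Ppargc1a, the coactivator of mitochondrial biogenesis, had a log2 fold change of -0.33 (SE 0.22) and Pdk4, which blocks pyruvate oxidation, one of -0.18 (SE 0.33). Leaving out 1 library moved Ppargc1a between -0.51 (without dKO library 5) and -0.11 (without WT library 5), and Pdk4 between -0.43 (without dKO library 5) and -0.09 (without dKO library 3). Of 31 glycolysis and glucose genes 3 had an unadjusted p under 0.05, the glycolytic enzymes Pgam2 and Eno3 and the glucose transporter Slc2a4, each at -0.18. In the insulin signalling list, 7 of 27 had an unadjusted p under 0.05 (25.9%, beside 12.2% of all genes), 4 higher and 3 lower. Igf1r, the IGF1 receptor, had 17.0, 19.97, 17.1, 19.9 and 20.2 CPM in WT and 16.5, 17.0, 15.9, 15.4 and 13.7 in dKO, giving a log2 fold change of -0.26 (SE 0.06, edgeR adjusted p = 0.0846). Irs2, an insulin receptor substrate, had 0.60 (SE 0.24, edgeR adjusted p = 0.297) and 0.33 without dKO library 3.

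**Figure D4:**
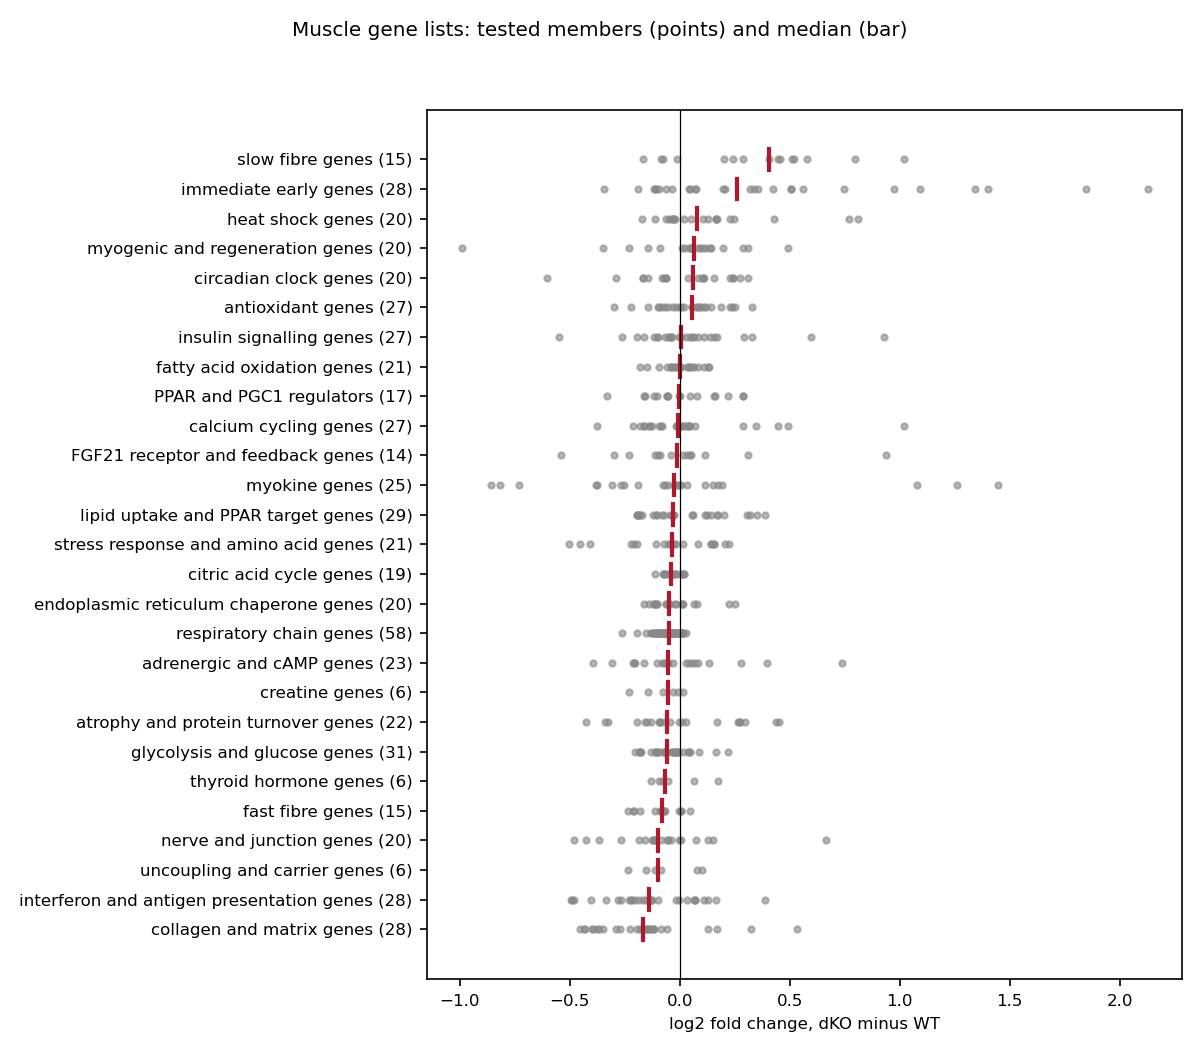
Log2 fold change of dKO against WT (horizontal axis) for the tested members (points; number tested in brackets) and the median (red bar) of the 27 lists that have more than 1 tested member. Most medians lie near 0, from -0.166 in the collagen and matrix genes to 0.405 in the slow fibre genes, in neither of which a gene was called.

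The lists of myokines and protein turnover held larger values without a call by edgeR or DESeq2. Igf2, an insulin-like growth factor, had 12.1, 12.3, 11.3, 12.9 and 13.0 CPM in WT and 8.99, 9.44, 9.22, 10.52 and 9.16 in dKO, and the groups did not overlap. The difference was -0.38 on the log2 scale (SE 0.09, edgeR adjusted p = 0.0847). Apln, the peptide apelin, had -0.82 (SE 0.21, edgeR adjusted p = 0.102) and Ostn, the peptide musclin, 1.08 (SE 0.28, edgeR adjusted p = 0.105). Of 25 myokine genes tested, 7 (28.0%, beside 12.2% of all genes) had an unadjusted p under 0.05, 3 higher and 4 lower. Among 22 atrophy and protein turnover genes the count was 7 (31.8%, beside the same 12.2%), with Sesn1, an inhibitor of mTORC1, at -0.34, Eif4ebp1, a repressor of translation, at -0.33 and Klf15, a glucocorticoid target, at -0.43. The muscle ubiquitin ligases Fbxo32 and Trim63 had 0.45 (SE 0.16, edgeR adjusted p = 0.221) and 0.30 (SE 0.16, edgeR adjusted p = 0.454), and Trim63 had 0.14 without dKO library 4. Among 20 nerve and junction genes 5 had an unadjusted p under 0.05 (25%, beside 12.2% of all genes), 1 higher and 4 lower. Dok7, which activates the receptor kinase of the neuromuscular junction, had 16.7, 16.4, 15.6, 18.9 and 19.1 CPM in WT and 12.8, 10.8, 14.8, 11.1 and 12.7 in dKO, giving a log2 fold change of -0.48 (SE 0.10, edgeR adjusted p = 0.0456), and DESeq2 called it with an adjusted p of 0.00234.

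Immediate early genes, which are transcribed within minutes of a stimulus to a cell, had 7 of 28 members at an unadjusted p under 0.05 (25.0%, beside 12.2% of all genes), all 7 higher in dKO (beside 6.58%), and a median log2 fold change of 0.262. Fosb, a subunit of the AP-1 factor, had 0.367, 0.371, 0.133, 0.412 and 0.241 CPM in WT and 0.527, 0.944, 2.32, 1.24 and 0.507 in dKO. Its groups did not overlap, and its log2 fold change was 1.85 (SE 0.38, edgeR adjusted p = 0.0421). Junb, another AP-1 subunit, which lies on chromosome 8 near Ucp1, had 1.70, 2.71, 2.34, 1.87 and 1.73 CPM in WT and 4.19, 3.44, 4.60, 4.56 and 3.60 in dKO, giving a log2 fold change of 0.97 (SE 0.21, edgeR adjusted p = 0.0591). Egr1, a zinc finger factor, had 3.85, 7.82, 2.02, 2.81 and 2.29 CPM in WT and 13.0, 10.7, 5.62, 14.1 and 6.57 in dKO, with WT library 2 inside the dKO range. The difference was 1.40 on the log2 scale (SE 0.37, edgeR adjusted p = 0.102). Against the same WT libraries, Fosb, Egr1 and Junb had 1.31, 1.37 and 0.27 in FGF21 KO and 0.10, 0.18 and 0.69 in UCP1 KO on the log2 scale, and the medians over the list were 0.0329 and -0.00272. Without dKO library 3 the count of 7 was 4 and the median 0.0681, and without dKO library 4 the count was 4.

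Extracellular matrix and vessel genes had mostly negative values. Of 28 collagen and matrix genes 24 had a negative log2 fold change, 5 were at an unadjusted p under 0.05 on the lower side and 1 on the higher (21.4% in all, beside 12.2% of all genes), and the median was -0.166. Col4a1 and Col4a2, the chains of basement membrane collagen IV, had -0.43 (SE 0.15) and -0.37 (SE 0.12), and Lamb1, a laminin chain, -0.40 (SE 0.13), with edgeR adjusted p between 0.186 and 0.207. Endothelial markers were all negative, and 5 of 8 (62.5%, beside 5.64% of all genes on the lower side) had an unadjusted p under 0.05, among them Tek, the angiopoietin receptor, Cdh5, VE-cadherin, and Egfl7. Tek had 39.6, 39.7, 37.3, 43.5 and 38.0 CPM in WT and 29.9, 28.4, 30.5, 31.2 and 30.2 in dKO, with no overlap, a log2 fold change of -0.40 (SE 0.09) and an edgeR adjusted p of 0.0724, while DESeq2, with an adjusted p of 0.00982, called it. Summed over the 8 markers, WT libraries had 324 to 397 CPM and dKO libraries 288 to 337. FGF21 KO libraries had 298 to 349 and UCP1 KO libraries 292 to 402. The median log2 fold changes of these markers were -0.255 in dKO, -0.198 in FGF21 KO and -0.0772 in UCP1 KO, against the same WT libraries. For the collagen and matrix list the medians were -0.166, -0.155 and -0.0595 in that order. Tek ran from 28.4 to 37.4 CPM in FGF21 KO and from 27.45 to 40.4 in UCP1 KO. In bulk muscle, fewer cells of a type and less RNA per cell cannot be told apart. The endothelial count was 3 of 8 without dKO library 2, and also without dKO library 1, WT library 1, WT library 2 or WT library 4.

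Library 2 of dKO stood apart in markers of other cell types. S100a8 and S100a9, proteins of neutrophils, had 11.6 and 23.2 CPM there and at most 0.604 and 0.787 in the other dKO libraries, beside at most 0.168 and 0.209 in WT. Their log2 fold changes of 5.08 (SE 1.16) and 5.43 (SE 1.27) did not pass the test (edgeR adjusted p = 0.0707 and 0.0790). Without this library they were 2.21 and 1.98. The 6 blood cell markers in the files summed to 237 CPM in that library, to 47.1 to 123 in the other dKO libraries and to 62.1 to 72.8 in WT. Tendon markers summed to 654 CPM in it, to 168 to 204 in the other dKO libraries and to 230 to 449 in WT. Without this library 7 of 8 tendon markers and 11 of 28 collagen and matrix genes had an unadjusted p under 0.05, all lower in dKO, as did 11.4% of all genes in either direction. With it the counts were 0 tendon markers and 6 matrix genes, 5 of the latter lower and 1 higher. Macrophage markers summed to 208 to 261 CPM in dKO and 172 to 231 in WT, with Lyz2, lysozyme, at a log2 fold change of 0.32 (SE 0.11, edgeR adjusted p = 0.214). Of 10 adipocyte markers 3 had an unadjusted p under 0.05 (30%, beside 12.2% of all genes), 2 higher and 1 lower. The median was 0.0305 over the list, with log2 fold changes of 0.12, 0.06 and 0.12 for Adipoq, Plin1 and Cidec. Elovl3, an elongase of brown fat, had 3.02 (SE 1.20, edgeR adjusted p = 0.295), with 6.22 CPM in dKO library 3 and at most 0.484 in the other WT and dKO libraries. Lep, leptin, had 1.65, 5.40, 1.94, 3.95 and 2.33 CPM in WT and 8.77, 25.7, 11.8, 4.25 and 12.4 in dKO. Its log2 fold change was 2.03 (SE 0.53, edgeR adjusted p = 0.105), while Cfd, adipsin, had -1.04 (SE 0.48, edgeR adjusted p = 0.384). In the single knockouts Lep ran from 1.94 to 9.72 CPM in FGF21 KO and from 0.446 to 4.04 in UCP1 KO. Of 8 Schwann cell markers 3 had an unadjusted p under 0.05 and of 8 smooth muscle markers 2 (37.5% and 25%, beside 5.64% of all genes on the lower side), all lower in dKO, with sums of 35.1 to 52.1 CPM in dKO against 44.4 to 61.6 in WT and of 2110 to 2748 against 2201 to 2529. Fibroblast, lymphocyte and hepatocyte markers had 0 by that measure and 0 calls by edgeR or DESeq2, and no marker list had a member at 0 in all 10 libraries. Only 3 of the 8 lymphocyte markers passed the filter. Hepatocyte markers had a median log2 fold change of 1.08, with 7 positive and 1 negative, beside 3.12 in FGF21 KO and 0.566 in UCP1 KO. They summed to 18.8 to 93.1 CPM in dKO and 19.1 to 129 in WT. The part of these cell types in the values of other genes was not tested.

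**Figure D5:**
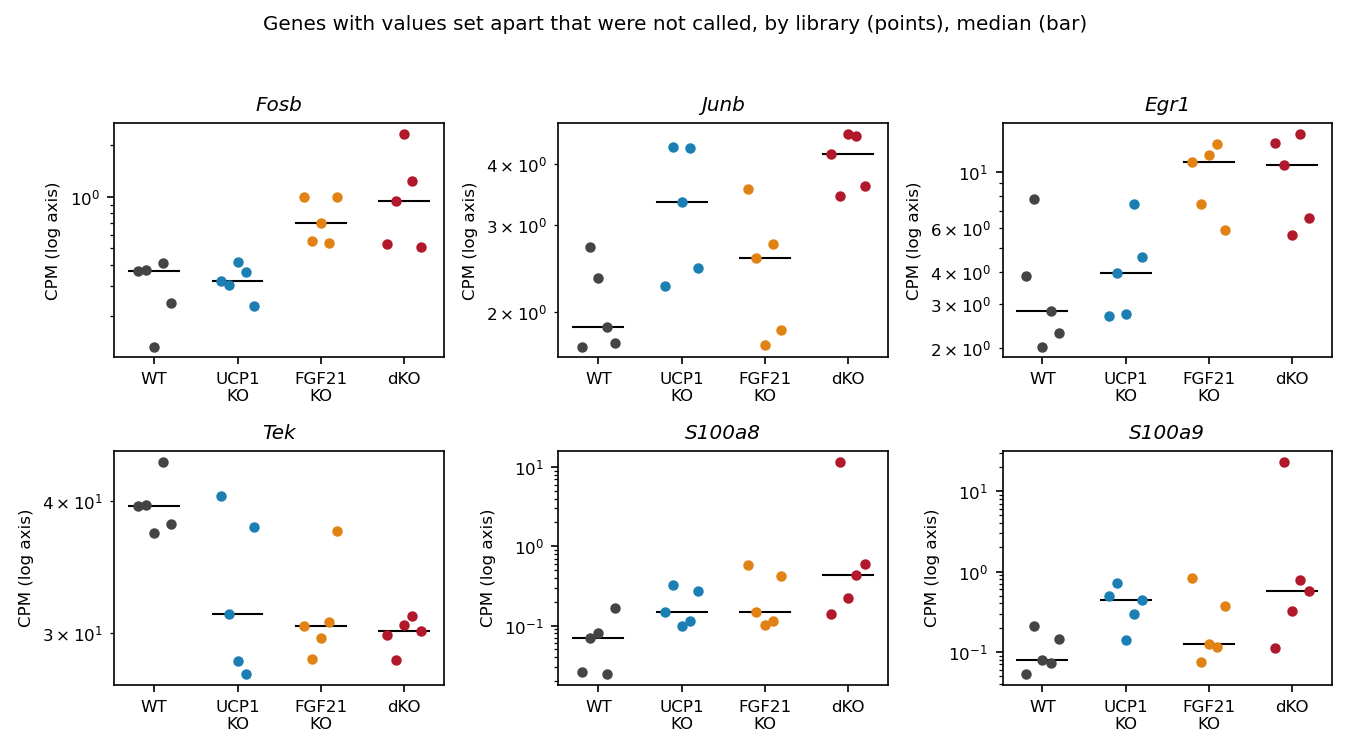
Levels in CPM (vertical axes, logarithmic) of 6 genes that edgeR did not call in muscle, with 1 point per library and the median of 5 libraries as a bar, in WT, UCP1 KO, FGF21 KO and dKO. S100a8 and S100a9 are set apart by dKO library 2, at 11.6 and 23.2 CPM, whereas all 5 dKO libraries of Tek, at 28.4 to 31.2 CPM, lie below the WT libraries.

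The remaining lists held no called gene by edgeR or DESeq2. None of 6 creatine, 20 heat shock or 6 thyroid hormone genes had an unadjusted p under 0.05, beside 12.2% of all genes. Among 20 circadian clock genes 2 did (10%), 1 higher and 1 lower, with Nr1d1, a repressor of the clock, at -0.29. Of 28 interferon and antigen presentation genes 4 did (14.3%), all lower (beside 5.64% of all genes), with Oasl2, an antiviral protein, at -0.48. Of 21 stress response and amino acid genes 2 did (9.52%), 1 higher and 1 lower, with Pycr1, of proline synthesis, at -0.45. Of 20 endoplasmic reticulum chaperone genes 2 did (10%), all higher, with Ern1, a sensor of unfolded proteins, at 0.25. Of 20 myogenic genes 4 did (20%), 3 higher and 1 lower, with Mef2c, a myogenic factor, at 0.14 (SE 0.05). In the lists of lipid uptake and PPAR targets (2 of 29), adrenergic and cAMP genes (2 of 23) and antioxidant genes (4 of 27), the share was at most 14.8%, beside the same 12.2%.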

How the data were processed

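Poly(A) RNA of each tissue was sequenced by the authors with a strand-marking kit and paired 100-base reads, which were aligned with STAR to mm10 and counted per gene with HTSeq-count. The authors deposited whole-number read counts per gene, 1 file per library. The strand setting of the counting is not given in the sources used here. Counts were used as deposited, and the row named unknown, at most 3.42e-05% of counts in a muscle library, was left out. All 20 muscle libraries (35078371 to 50380696 counts) entered one fit of genotype means in edgeR 4.0.16 (TMM factors, quasi-likelihood F test, Benjamini-Hochberg adjustment, R 4.3.3), called at an adjusted p under 0.01. A gene needed a highest count above 15, counts adding up to over 75 and zeros in at most 10 libraries. The filter follows the study's methods and the threshold its figure legend. The study itself used DESeq2 for differential expression. The standard error is the log2 fold change divided by the square root of F. Single genes were also given an exact two-sided permutation test over log2 CPM (pseudocount 0.1). Other tissues were fitted separately. Alternatives were DESeq2 1.42.0, limma-voom (limma 3.58.1), RLE factors, other filters, a threshold of 0.05, the 10 dKO and WT libraries alone, and each library left out. Gene positions and promoter windows are from RefSeq (GRCm38.p6), matched by symbol for 24135 of 32765 names, and overlaps from GENCODE. Genes were named by a rule: all called genes, the 5 non-overlapping genes with the smallest p in each direction among the rest, up to 3 per list, 20 named genes of thermogenesis and muscle, and the 5 smallest p among DESeq2-only genes. The comparison and the lists were chosen with earlier results of these data known. The fits were tested on simulated data. Results for some genes, among them an overlap with a neighbouring gene, are not reported here.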

Additional observations from a re-analysis of the deposited data

Results flagged for a closer look

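Among 172 groups of 5 libraries (86 named genes, dKO and WT), 8 held a library set far from the other 4 on the log2 scale, where chance sets apart about 1 in 20 groups. In WT, Ucp1 had 28.5 CPM in library 4 (others 0.719 to 2.08), Dand5 had 11.8 in library 1 (others 8.52 to 9.28), Atp2a1 had 23710 in library 1 (others 27330 to 28510) and Sesn1 had 33.8 in library 5 (others 38.8 to 40.8). In dKO, Ppargc1a had 84.0 CPM in library 5 (others 48.6 to 52.1), Apln had 3.02 in library 3 (others 1.91 to 2.11), Ppard had 19.7 in library 2 (others 23.96 to 25.7) and Wdr83 had 11.7 in library 1 (others 11.3 to 11.4). The Wdr83 gap is small on the scale of its difference from WT.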

How the results depend on the processing

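For dKO against WT, the result was 8 calls, 3 higher and 5 lower. DESeq2 gave 71, 41 and 30, and a threshold of 0.05 gave 40, 22 and 18. Leaving out 1 library gave 4 to 14 calls, 1 to 6 higher and 3 to 8 lower. RLE factors and the filterByExpr filter gave 8, limma-voom 7, no filter 6 and the dKO and WT libraries alone 10. DESeq2 gave 26 calls for UCP1 KO against WT, 192 for FGF21 KO against WT, 20 for dKO against UCP1 KO and 17 for dKO against FGF21 KO, and a threshold of 0.05 gave 11 and 177 for the first pair. Of 1376 pairs of a named gene and an alternative, 23 changed sign, in genes near 0 or with 1 high library. Without a filter Atp2a1 had -0.0034 and Myh4 -0.00011, and Myh2 had 0.033 by limma-voom. With 1 library left out, the ranges were -0.045 to 0.046 for Atp2a1, -0.074 to 0.062 for Myh4, -0.091 to 0.21 for Myh1, -0.33 to 0.40 for Myh2, -0.019 to 0.070 for Ryr1, -0.045 to 1.001 for Klb and -1.99 to 1.42 for Ucp1, which was positive without WT library 4. The cause was not tested. No paired analysis was possible because the labels give the libraries no replicate numbers, and the numbers used here follow the order of deposit. Genes at under 1 CPM, such as Gm38426 in WT, rest on few counts, so their folds are less certain.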
